A study of Rattus norvegicus with 12 samples.

Results

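Aif1, Cd74 and B2m are 3 genes of the innate immune and antigen presentation systems, described here across brain and testis of hDNMT3A transgenic and wild-type rats. They were chosen by identifier, ENSRNOG00000000853 (Aif1), ENSRNOG00000018735 (Cd74) and ENSRNOG00000017123 (B2m), and are 3 of the 25908 genes in the deposited table. The symbols were given with the identifiers when the genes were chosen: the table lists identifiers without names, and the rat reference (assembly GRCr8) matched 0 of the 25908. The study sequenced total RNA from adult male Sprague Dawley rats aged 15 weeks. Its 4 groups of 3 libraries were brain of rats with a human DNMT3A transgene (labelled hDNMT3A), brain of wild-type rats (WT), testis of hDNMT3A rats and testis of WT rats. DNMT3A methylates cytosines of DNA that carried no methyl group before. The sources used here name neither the promoter that drives the transgene nor the number of founder lines. Nothing in the labels says that samples of a group were different animals, so every p-value rests on a spread between samples that may be technical.

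Aif1 encodes Iba1, a calcium-binding protein of the actin cytoskeleton that is widely used to mark microglia, the resident macrophages of the brain, and macrophages elsewhere. Cd74 encodes the invariant chain, which escorts MHC class II molecules to the compartment where they are loaded with peptide, and class II is made mainly by professional antigen-presenting cells. B2m encodes beta-2-microglobulin, the light chain of MHC class I, which most nucleated cells carry. Brain parenchyma and the seminiferous tubules of the testis are both regarded as immune-privileged sites.

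Whole reads were recovered from the FPKM values, and totals ran from 14004547 to 16112149 reads per library. FPKM correct fragments for gene length and library total, so levels of different genes can be set side by side. One library stood apart. In WT brain replicate 2, the 203 genes abundant in testis and nearly silent in brain reached 1.59% of their testis level, while the other WT brain libraries had 0.330% and 0.0616% and the hDNMT3A brain libraries 0.0511%, 0.119% and 0.165%. The tests that use WT brain are therefore also given without that library, apart from the correlations. Every correlation in brain includes it, also those given without the 2 libraries farthest from the median. Other markers of microglia, macrophages, lymphocytes, neurons and germ cells, and the other genes of antigen presentation, were not analysed here, since their identifiers were not paired with names. The tissue labels were therefore not checked against named markers. In bulk tissue, fewer cells of a type and less RNA per cell cannot be told apart.

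Aif1 was a moderately expressed transcript in brain and an abundant one in testis. It stood at 6.60, 6.87 and 5.86 FPKM in hDNMT3A brain and at 6.22, 6.55 and 7.13 FPKM in WT brain. In testis it stood at 105.7, 108.7 and 117 FPKM in hDNMT3A rats and at 120.2, 110.5 and 123 FPKM in WT rats. The genotypes overlapped in both tissues, and every testis library lay far above every brain library. Among the genes of a library Aif1 ranked from 8378 to 9177 in brain and from 868 to 1000 in testis. The 160 to 195 reads per brain library set a counting error close to the spread seen: the coefficient of variation was 8.08% in hDNMT3A and 6.89% in WT brain, against 7.49% and 7.54% from counting alone. In testis 2867 to 3531 reads stood behind each value.

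Cd74 was lower than Aif1 in every testis library and showed the widest spread between replicates of the 3 genes. It stood at 4.48, 9.48 and 6.07 FPKM in hDNMT3A brain, against 2.30, 4.93 and 2.98 FPKM in WT brain. In testis it stood at 10.01, 10.7 and 18.6 FPKM in hDNMT3A rats, against 19.7, 14.5 and 13.8 FPKM in WT rats. In brain 8 of 9 pairs had the hDNMT3A library higher, with hDNMT3A replicate 1 below WT replicate 2, and in testis the groups overlapped through hDNMT3A replicate 3. The coefficient of variation was 38.2% in hDNMT3A and 40.1% in WT brain, where the median over 13827 genes tested was 10.2% and 9.52%. In testis it was 36.5% in hDNMT3A and 19.97% in WT rats, against medians of 10.8% and 8.72% over 14572 genes. That spread was wider than counting error: hDNMT3A brain replicate 1 held 95 reads (exact 95% interval 3.63 to 5.48 FPKM) and replicate 2 held 207 (8.23 to 10.9 FPKM), and WT brain replicate 1 held 48 (1.70 to 3.05 FPKM) and replicate 2 held 96 (3.99 to 6.02 FPKM).

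B2m was the most abundant of the 3 in brain. It stood at 137, 154 and 129 FPKM in hDNMT3A brain and at 148, 128 and 143 FPKM in WT brain, where it ranked between 391 and 494 among the genes of a library. In testis it stood at 51.4, 53.1 and 58.2 FPKM in hDNMT3A rats and at 57.8, 55.1 and 44.4 FPKM in WT rats, with ranks between 1832 and 2349. Again the genotypes overlapped in each tissue, and every brain library lay above every testis library. Between 1295 and 4416 reads stood behind each value.

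The order of the mean levels differed between the tissues. In hDNMT3A brain B2m (140 ± 12.6 FPKM) stood far above Cd74 (6.68 ± 2.55) and Aif1 (6.44 ± 0.521), which did not differ beyond their spread (SD, n = 3). In WT brain B2m (140 ± 10.4 FPKM) was followed by Aif1 (6.63 ± 0.457) and then Cd74 (3.402 ± 1.36; SD, n = 3). In testis Aif1 came first, with 111 ± 6.06 FPKM in hDNMT3A and 118 ± 6.55 FPKM in WT rats (SD, n = 3). B2m followed with 54.2 ± 3.54 and 52.4 ± 7.09 FPKM, and Cd74 was lowest with 13.1 ± 4.78 and 16.0 ± 3.19 FPKM in hDNMT3A and WT testis (SD, n = 3).

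**Figure D1:**
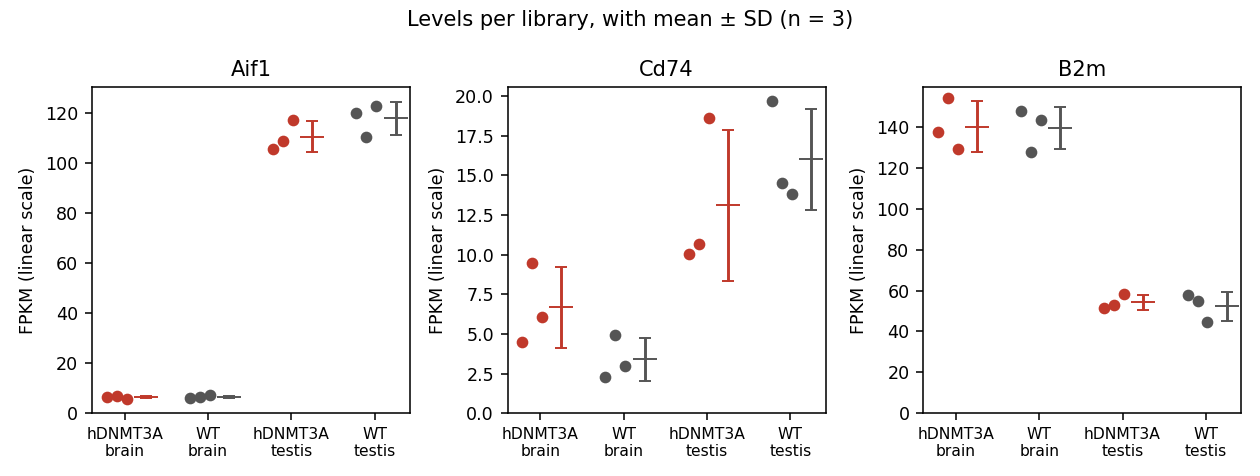
FPKM of Aif1, Cd74 and B2m (1 panel each, linear vertical axis from 0) in the 4 groups, with 1 point per library (red, hDNMT3A; grey, WT) and, to the right of the points, the mean and SD (n = 3). Aif1 lies between 5.86 and 7.13 FPKM in brain and between 105.7 and 123 FPKM in testis, B2m is higher in brain, and Cd74 has the widest spread relative to its level.

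The promoters of the 2 genes of antigen presentation are shown because Cd74 and B2m differed between the tissues in opposite directions and because the transgene's enzyme acts on DNA mainly at CG dinucleotides. The sequences are from RefSeq (GRCr8, whereas the submitters' processing notes name Rnor_6.0 for the reads) and span 250 bases before to 50 after the start of the gene, both on the plus strand. Of the 3 genes, 2 had an entry in the promoter table, and Aif1 is named only. Capitals mark matches on either strand to CCAAT, the box bound by NF-Y, and to the interferon-stimulated response element bound by IRF proteins, searched as GAAA, any 2 bases and GAAA. No match to one overlapped a match to the other. Cd74 is at chr18:56526956-56527255 and B2m at chr3:129549080-129549379.
Cd74: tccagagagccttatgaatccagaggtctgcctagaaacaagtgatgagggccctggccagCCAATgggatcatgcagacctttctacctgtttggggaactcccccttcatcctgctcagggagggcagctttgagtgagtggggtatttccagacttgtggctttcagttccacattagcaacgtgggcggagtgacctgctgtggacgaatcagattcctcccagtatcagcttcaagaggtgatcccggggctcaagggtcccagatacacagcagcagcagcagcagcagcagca
B2m: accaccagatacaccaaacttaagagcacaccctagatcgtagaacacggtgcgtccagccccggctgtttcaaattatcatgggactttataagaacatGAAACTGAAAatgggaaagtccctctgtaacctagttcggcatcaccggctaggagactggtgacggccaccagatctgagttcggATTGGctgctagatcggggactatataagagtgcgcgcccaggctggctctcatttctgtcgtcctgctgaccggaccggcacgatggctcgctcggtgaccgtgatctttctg
Each promoter held 1 CCAAT match, which 37.5% of 33469 promoters of the same length also held on one strand or the other. It began 189 bases before the start on the gene's strand in Cd74 and 64 bases before it, as ATTGG on the opposite strand, in B2m. The interferon element matched once in B2m, beginning 150 bases before the start, and not in the Cd74 window, and 3.92% of all promoters held it. There were 4 CG dinucleotides in the Cd74 promoter and 18 in that of B2m, where the median promoter had 7. No methylation was measured in these libraries, so these counts describe the sequence alone.

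The first comparison asked whether the transgene went with a change of these immune transcripts in brain. None of the 3 was called by limma's moderated test on log2(FPKM + 0.5), at a Benjamini-Hochberg adjusted p under 0.05 over 13827 genes, a threshold that 16 genes (0.116%) passed. Cd74 had a mean of 6.68 ± 2.55 FPKM in hDNMT3A and 3.402 ± 1.36 FPKM in WT brain (SD, n = 3), a ratio of means of 1.96. On the log2 scale hDNMT3A minus WT was 0.88 (SE 0.31, 95% interval 0.14 to 1.61, adjusted p = 0.54). A difference as high or higher was seen in 0.571% of the genes tested, and one of larger size in either direction in 2.30%. Without WT brain replicate 2, the WT library with the most Cd74 and with testis transcripts, the Cd74 difference was 1.14 (adjusted p = 0.46). Without hDNMT3A brain replicate 2, the highest library, it was 0.61 (adjusted p = 0.74). The difference of Aif1 was -0.04 (95% interval -0.28 to 0.20, adjusted p = 0.97) and that of B2m 0.0043 (95% interval -0.20 to 0.21, adjusted p = 0.996). In this fit the intervals ran from 0.822-fold to 1.15-fold for Aif1 and from 0.868-fold to 1.16-fold for B2m. Other fits gave Aif1 a higher upper limit on the log2 scale. It was 0.30 without WT brain replicate 3, and 0.47 with testis transcripts taken off as described below. Without WT brain replicate 2 the differences were -0.05 (adjusted p = 0.98) for Aif1 and -0.06 (adjusted p = 0.96) for B2m, whose sign turned.

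Because Aif1 was so abundant in testis, its level in brain was set beside the testis transcripts of each brain library. The share of testis level in a library multiplied by the testis mean of Aif1 came to 0.0565, 0.132 and 0.183 FPKM in the hDNMT3A brain libraries and to 0.389, 1.88 and 0.0726 FPKM in the WT ones. For WT brain replicate 2 that product was 28.7% of the Aif1 value, while in the other brain libraries it was at most 6.25%. With the product taken off, Aif1 stood at 6.32 ± 0.563 FPKM in hDNMT3A and 5.85 ± 1.19 FPKM in WT brain (SD, n = 3), and the log2 difference changed sign to 0.12 (95% interval -0.24 to 0.47, adjusted p = 0.93 by limma). The same product was at most 5.18% of the value of Cd74 and 0.654% of that of B2m.

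**Figure D2:**
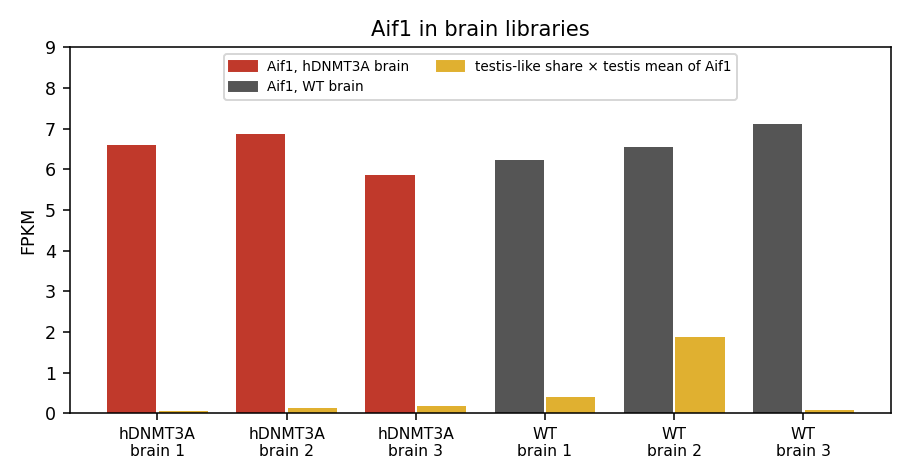
Aif1 FPKM in each brain library (red, hDNMT3A; grey, WT) beside the product of the library's testis-like share and the testis mean of Aif1 in the same genotype (yellow), with 1 pair of bars per library. In WT brain replicate 2 the product is 1.88 FPKM beside 6.55 FPKM of Aif1, and in the other libraries it is at most 0.389 FPKM.

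In testis none of the 3 genes was called either, where 84 of 14572 genes (0.576%) were. Cd74 was at 13.1 ± 4.78 FPKM in hDNMT3A and 16.0 ± 3.19 FPKM in WT testis (SD, n = 3), with a log2 difference of -0.32 (95% interval -0.89 to 0.26, adjusted p = 0.71 by limma). Single libraries moved this value: it was -0.59 (adjusted p = 0.21) without hDNMT3A testis replicate 3, -0.16 (adjusted p = 0.85) without hDNMT3A testis replicate 1, -0.20 (adjusted p = 0.88) without hDNMT3A testis replicate 2 and -0.16 (adjusted p = 0.93) without WT testis replicate 1. Aif1 differed by -0.09 (95% interval -0.24 to 0.06, adjusted p = 0.68) and B2m by 0.05 (95% interval -0.20 to 0.31, adjusted p = 0.90).

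Whether the genotype difference itself differed between the tissues was asked with the interaction over 10917 genes, 46 of which (0.421%) were called. Cd74 had a difference of 0.88 in brain and -0.32 in testis, and the interaction of 1.19 (95% interval 0.22 to 2.17) had an adjusted p of 0.47. An interaction as high or higher was seen in 0.357% of the genes, and one of larger size in either direction in 1.43%. The interaction was 0.05 (95% interval -0.20 to 0.30, adjusted p = 0.97) for Aif1 and -0.05 (95% interval -0.38 to 0.28, adjusted p = 0.98) for B2m. Without WT brain replicate 2 the interaction was 1.46 (adjusted p = 0.27) for Cd74, 0.04 (adjusted p = 0.97) for Aif1 and -0.11 (adjusted p = 0.93) for B2m.

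**Figure D3:**
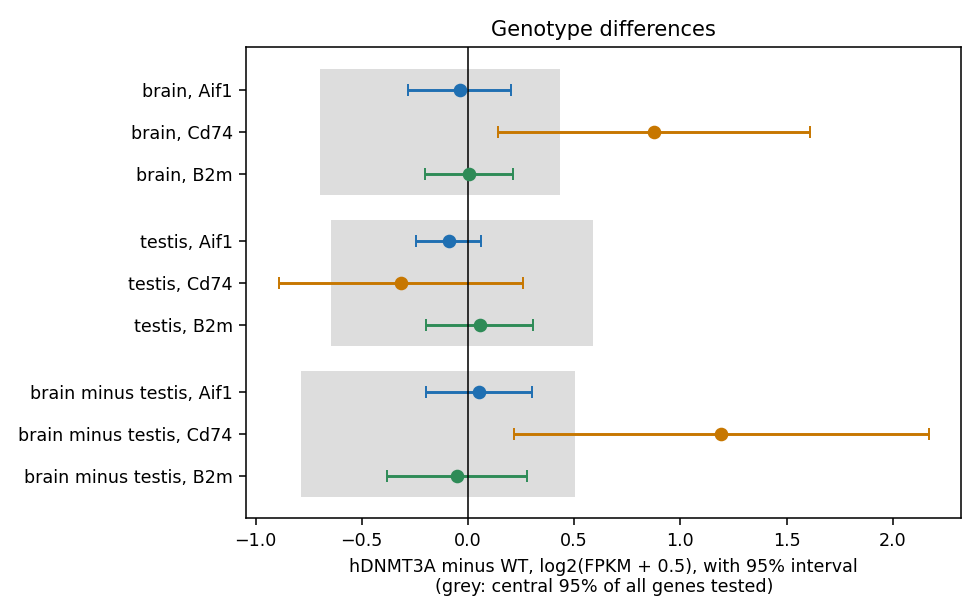
Log2 difference, hDNMT3A minus WT, of Aif1 (blue), Cd74 (orange) and B2m (green) in brain and testis, and the brain difference minus the testis difference, with 95% intervals from limma; grey bands span the central 95% of all genes tested. Cd74 in brain lies at 0.88 and its interaction at 1.19, both outside the grey band, while Aif1 and B2m lie near 0.

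The tissues themselves differed in all 3 genes and in both genotypes, with Aif1 and Cd74 lower and B2m higher in brain than in testis. Most genes differed between the tissues: 89.1% of 16102 genes tested were called in hDNMT3A rats and 89.7% of 16115 in WT rats, so a call alone does not set the 3 genes apart. Calls lower in brain made up 41.5% of the genes tested in each genotype, and calls higher in brain 47.6% in hDNMT3A and 48.2% in WT rats. Aif1 differed by -4.00 on the log2 scale, brain minus testis, in hDNMT3A rats (95% interval -4.21 to -3.80, adjusted p = 5.12e-09 by limma) and by -4.05 in WT rats (95% interval -4.24 to -3.87, adjusted p = 5.37e-08). By the ratio of means, testis was 17.2-fold higher in hDNMT3A and 17.8-fold higher in WT rats. A difference of larger size was seen in 17.4% and 16.4% of the genes tested in hDNMT3A and WT rats.

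Cd74 was lower in brain by a smaller amount. Its difference was -0.93 in hDNMT3A rats (95% interval -1.65 to -0.21, adjusted p = 0.0213 by limma) and -2.12 in WT rats (95% interval -2.76 to -1.48, adjusted p = 0.000228). The call in hDNMT3A rats was lost without hDNMT3A brain replicate 1 (-0.69, adjusted p = 0.0696), without hDNMT3A brain replicate 3 (-0.89, adjusted p = 0.0584) and without hDNMT3A testis replicate 3 (-0.65, adjusted p = 0.0724). B2m was higher in brain, by 1.36 in hDNMT3A rats (95% interval 1.15 to 1.57, adjusted p = 2.21e-06 by limma) and by 1.41 in WT rats (95% interval 1.14 to 1.69, adjusted p = 2.19e-05), which is 2.59-fold and 2.66-fold by the ratio of means. Without WT brain replicate 2 the differences in WT rats were -4.05 for Aif1, -2.39 for Cd74 and 1.47 for B2m, with adjusted p of 1.89e-07, 3.77e-05 and 4.77e-05.

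FPKM are shares of a library, and the median of all genes lay at 0.21 in hDNMT3A and 0.23 in WT rats, toward brain. When each library was scaled to its median ratio, that median moved to -0.19 and -0.17. Relative to the median of all genes Aif1 differed by -4.21 in hDNMT3A and -4.28 in WT rats, Cd74 by -1.14 and -2.35, and B2m by 1.15 and 1.18. After the scaling the differences themselves were -4.42 in hDNMT3A and -4.48 in WT rats for Aif1 and -1.34 and -2.53 for Cd74. Those of B2m fell to 0.93 and 0.97, so no direction turned. Relative to the median they were -4.23 and -4.31 for Aif1, -1.15 and -2.36 for Cd74, and 1.11 and 1.14 for B2m. These last values could hardly change, since scaling a library moves all its genes by nearly the same amount. The split of all calls did turn, with 7666 genes higher and 6676 lower in brain in hDNMT3A rats, and 6615 and 7633 after scaling (WT rats, 7774 and 6688, then 6698 and 7677).

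**Figure D4:**
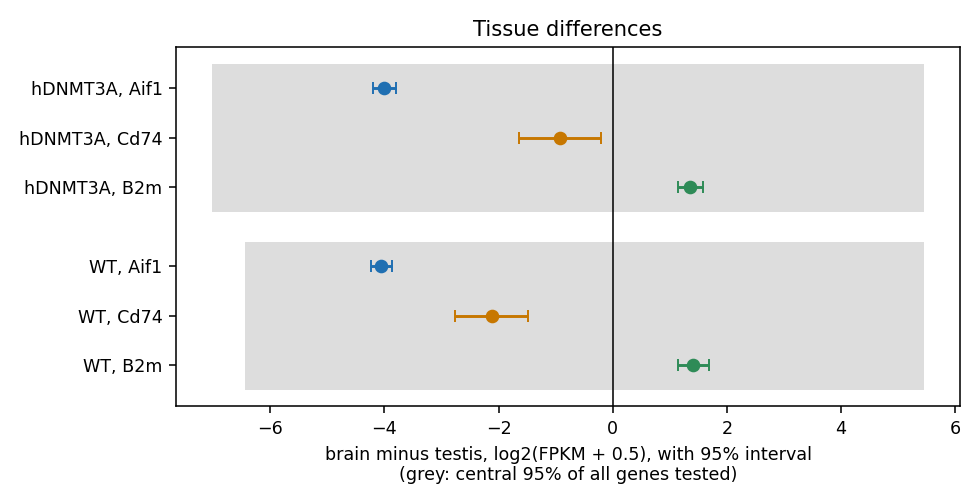
Log2 difference, brain minus testis, of Aif1 (blue), Cd74 (orange) and B2m (green) in hDNMT3A and WT rats, with 95% intervals from limma; grey bands span the central 95% of all genes tested. Aif1 lies near -4 in both genotypes, B2m between 1.36 and 1.41, and Cd74 at -0.93 in hDNMT3A and -2.12 in WT rats.

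Ratios of FPKM between the genes within a library do not depend on how the library is scaled. The folds and tests below add 0.5 to each FPKM first, so this does not fully hold for them. Without the 0.5 the log2 differences of the ratios, brain minus testis, were -2.49 for Aif1 to Cd74, -5.52 for Aif1 to B2m and -3.03 for Cd74 to B2m. The ratio of Aif1 to Cd74 in FPKM was 1.47, 0.725 and 0.967 in hDNMT3A brain and 2.71, 1.33 and 2.39 in WT brain. In testis it was 10.6, 10.2 and 6.31 in hDNMT3A and 6.11, 7.62 and 8.89 in WT rats. The ratio was lower in each of the 6 brain libraries than in each of the 6 testis libraries. On the log2(FPKM + 0.5) scale it was 5.67-fold lower (exact two-sided permutation test, adjusted p = 0.00216 over 3 ratios, the smallest this design allows). The ratio of Aif1 to B2m ran from 0.0422 to 0.0512 in brain and from 2.00 to 2.77 in testis. On the log2(FPKM + 0.5) scale it was 42.6-fold lower in brain (exact permutation test, adjusted p = 0.00216). Cd74 stood at 4.71% ± 1.45 of B2m in hDNMT3A and 2.496% ± 1.203 in WT brain, and at 23.8% ± 7.04 in hDNMT3A and 30.5% ± 3.90 in WT testis (SD, n = 3). On the log2(FPKM + 0.5) scale the ratio of Cd74 to B2m was 7.51-fold lower in brain (exact permutation test, adjusted p = 0.00216). Without WT brain replicate 2 the log2 differences of the ratios were -2.49 for Aif1 to Cd74, -5.44 for Aif1 to B2m and -2.95 for Cd74 to B2m, against -2.50, -5.41 and -2.91 with it (exact permutation test, adjusted p = 0.00433 without it for each). The ratios to B2m had to separate the tissues, since every brain library had less Aif1 and Cd74 and more B2m than every testis library. Their tests therefore restate the tissue differences given above, and any 2 of the ratios fix the third. The 3 genes thus did not keep one proportion across the tissues. How many other pairs of genes separate the tissues in this way was not counted. With 89.1% of genes called between the tissues in hDNMT3A and 89.7% in WT rats, this separation does not set the 3 genes apart. Aif1 and Cd74 both ranked testis above brain, by unlike amounts, and B2m, which most nucleated cells carry, ranked brain above testis. Whether any of them measures microglia or macrophages in these tissues was not tested, since no other marker of those cells was analysed.

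Within a tissue the 3 genes were not shown to vary together. Of 6 relations over the 6 libraries of brain or of testis, the closest by Spearman rho was that of Cd74 and B2m in testis (rho = 0.77, exact permutation p = 0.103, adjusted p = 0.53). By Pearson r the closest was that of Aif1 and Cd74 in testis (r = 0.74, exact permutation p = 0.114, adjusted p = 0.66). Its Spearman rho was 0.66 (exact permutation p = 0.175, adjusted p = 0.53). In brain the same pair had a Pearson r of 0.012 (exact permutation p = 0.98) and a Spearman rho of -0.029 (exact permutation p = 1.00). Cd74 and B2m had a Pearson r of -0.016 in brain (rho = -0.086) and 0.50 in testis (rho = 0.77), and Aif1 and B2m 0.49 in brain (rho = 0.43) and -0.17 in testis (rho = 0.086), with adjusted p from 0.53 to 1.00 by exact permutation tests. Without the 2 libraries farthest from the median of the first gene, r of Cd74 and B2m was -0.89 in brain and 0.38 in testis, that of Aif1 and B2m 0.17 and 0.94, and that of Aif1 and Cd74 0.98 and 0.94, so several of these values rest on 2 libraries.

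Over 10914 other genes that averaged 1 FPKM or more in brain and in testis alike, the one whose deviations from its tissue means were most like those of Aif1 over the 12 libraries was ENSRNOG00000027234 (r = 0.85). For Cd74 it was ENSRNOG00000011933 (r = 0.87) and for B2m ENSRNOG00000020451 (r = 0.88). The table does not name these genes. Among so many genes and few libraries high values are found in number: the hundredth gene on each list still reached 0.68 for Aif1, 0.67 for Cd74 and 0.71 for B2m.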

How the data were processed

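The authors deposited 1 table of FPKM values (fragments scaled to gene length and library total) for 25908 genes in 12 libraries. RNA was extracted with Trizol and total RNA went into Illumina TruSeq libraries, per the labels' protocols. The submitters' processing notes name Bowtie 1.0.1 and the build Rnor_6.0. No source used here gives the annotation, the counter or its use of strand, so overlapping genes could share reads. The members and lists were chosen with earlier results of these data known. The genes named are the 3 members and, for each, the gene with the highest r after tissue means were taken off.

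In 100% of genes 1 length turned the FPKM of all libraries into whole reads (tolerance 0.002 reads). Between replicates the mean chi-square per gene was 4.79 to 14.2, above sampling noise, and each library counts as 1 sample. Counting intervals (exact Clopper-Pearson, 95%) cover counting error only. Testis-restricted genes averaged 100 FPKM or more in testis, with a brain median no higher than 0.5 FPKM.

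Limma 3.58.1 (R 4.3.3) was fitted with an intensity trend to log2(FPKM + 0.5) of all genes that averaged 1 FPKM or more over the 6 libraries compared (for the interaction, in each tissue), two-sided. On this scale the change of low genes is understated. The fits and the recovery were also run on simulated data, whose outcome is not given here and supports no result. For the tissue fits the simulated tissues were equal except for a set of changed genes, whereas in the data most genes differed. Ratios and correlations used Python 3.11.15 with scipy 1.17.1. Alternatives changed the pseudocount, filter, scaling, trend, libraries in the fit, replicate block and unit (voom on recovered reads), and left out each library. Taking a testis-like share off the brain libraries, for the fits and the ratios, was chosen after seeing the data.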

Additional observations from a re-analysis of the deposited data

How the results depend on the processing

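The calls of Aif1 and B2m between the tissues, and of Cd74 in WT rats, kept their direction and their side of the threshold under every alternative fitted. The 3 ratios did so with a pseudocount of 0, without each library and with the testis-like share taken off (-2.59 for Aif1 to Cd74, -5.51 for Aif1 to B2m and -2.92 for Cd74 to B2m on the log2 scale), the settings run for them. No member was called for genotype or for the interaction under any. Without single replicates Cd74 ran from -1.19 to -0.65 between the tissues in hDNMT3A rats, with the call lost for 3 of 6. Cd74 ran from 0.61 to 1.14 in brain and from -0.59 to -0.16 in testis for genotype. The small genotype differences changed sign in places. Without single replicates Aif1 ran from -0.0835 to 0.0223 and B2m from -0.0650 to 0.0608 in brain, B2m from -0.0595 to 0.129 in testis, and the interaction of B2m from -0.125 to 0.0638. With the testis-like share taken off, Aif1 was 0.12 in brain. With median-ratio scaling r of Aif1 and Cd74 in brain was -0.020. Without the 2 libraries farthest from the median r was -0.89, 0.17 and 0.98 in brain and 0.38, 0.94 and 0.94 in testis, for Cd74 and B2m, Aif1 and B2m, and Aif1 and Cd74. The cause was not tested.

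Over all genes, brain calls numbered 16, 7 with a pseudocount of 0.1, 57 with all 12 libraries in 1 fit and 2 to 8 without single replicates. Testis calls numbered 84, 247 with all 12 libraries, 190 with voom and 20 to 80 without single replicates. Interaction calls numbered 46, 103 without a filter and 25 to 44 without single replicates. With the replicate number as a block there were 0 brain calls (limma; 742 genes at an unadjusted p under 0.05), 39 testis calls and 1 interaction call, and no call of a member changed. Deviations of same-numbered samples from their group means correlated at -0.27 to 0.18 across genes, over 0.1 in 2 of 12 pairs. These pairs set the genotypes against each other within a tissue, and brain against testis within a genotype. The numbers were not taken to pair the samples. Not every sample's deviations correlated best with those of its own number (13 of 24 checks did, where 1 in 3 would without any pairing). The comparisons differed in this. Between the genotypes, same-numbered samples correlated at 0.078, 0.036 and 0.106 in testis and at -0.0052, -0.145 and -0.271 in brain. Same-numbered brain and testis samples of a genotype share the stem of their column header, such as A1BR and A1TR. The labels do not say whether they came from 1 rat, and the main tests between the tissues took them as unpaired. Cd74 in brain rests on 48 to 207 reads per library, but its spread between samples was wider than counting error, while that of Aif1 in brain was close to it.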
